A study of Rattus norvegicus with 12 samples.

Results

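VAMP7 is a SNARE protein: it sits in the membrane of late endosomes, lysosomes and secretory vesicles and, by coiling with SNAREs of a target membrane, drives the fusion of both membranes. It is known for the release of lysosomes and late endosomes at the cell surface and for traffic that supports cell shape and migration. The RNA of rat cells that carry a disrupted Vamp7 gene (VAMP7KO) is compared here with that of the unedited parental cells (WT). Both genotypes were NRK cells, a normal rat kidney line labelled as epithelial, kept in growth medium without any treatment. WT and VAMP7KO had 4 libraries each, 8 of the 12 libraries of the series, and the remaining 4 came from another genotype, ATG5KO, that takes no place in the comparison. The knockout was made with CRISPR/Cas9 from a plasmid that also carries GFP, and single fluorescent cells were sorted to start the line, and how many sorted cells gave rise to VAMP7KO is not given in the sources used here, so an effect of the knockout and one of deriving a line from single cells cannot be told apart. Each library came from 1 dish, and the methods call the 4 replicates of a genotype independent.

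Between 22651124 and 31525111 counts of genes were recorded per library over 20842 genes. Levels are given in CPM, the read count of a gene scaled to a common library size with TMM factors, always in the order of replicates 1, 2, 3 and 4, and 3 counts in a library, the level taken as the floor, amounted to 0.0978 to 0.135 CPM. Where a sentence gives values of both genotypes, those of WT come first. A rise or fall by a plain number is the fitted change of VAMP7KO over WT on the log2 scale, and a value after ± is its standard error over 4 libraries per genotype. The libraries fell into the set of replicates 1 and 2 and the set of replicates 3 and 4. On the 2000 most variable genes, the sets had opposite signs on the first principal component (49.8% of the variance) and the genotypes on the second (42.0%). Each component also moved with the other factor. On the first, WT replicate 1 stood at -12.9 and VAMP7KO replicate 1 at -53.6, and on the second WT replicates 1 and 3 stood at 55.4 and 5.31. Neither share of the variance therefore measures the set or the genotype alone. What the sets stand for is not given in the sources used here. The set was therefore a block in the main fit, and values within each set stand beside the pooled ones.

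The labelled cell type was set against marker genes. The summed level of 11 epithelial markers was 913 to 1316 CPM in WT and 661 to 725 CPM in VAMP7KO, and Krt8, a keratin of simple epithelia, made up most of it. Other markers of the 11 held the rest, and of the 7 that were tested 6 were lower and 0 higher in VAMP7KO. Cgn and Dsp, picked after their values were seen, are examples of low markers and do not stand for all of them. Cgn, a tight junction protein, was at or near the floor in all 8 libraries. Dsp, the desmosomal plaque protein, reached 0.942 and 1.104 CPM in WT replicates 1 and 2 and stayed at or near the floor in the other 6 libraries. Summed mesenchymal markers stood at 588 to 1553 CPM in WT and 1167 to 3372 CPM in VAMP7KO. In bulk RNA, fewer cells of a type and less RNA per cell cannot be told apart.

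Of 12536 genes tested with edgeR's quasi-likelihood test, 3977 (31.7%) had a Benjamini-Hochberg adjusted p under 0.05, with 1990 (15.9%) higher and 1987 (15.9%) lower in VAMP7KO, and 1450 (11.6%) also differed by at least 1.5-fold, 664 (5.3%) of them higher and 786 (6.27%) lower. All 4 VAMP7KO libraries lay above all 4 WT libraries for 865 genes (6.9%) and below them for 1102 (8.79%). In replicates 1 and 2 alone 4338 genes (33.7%) were called, with 18.2% of the genes tested there lower, and in replicates 3 and 4 alone 5230 (41.6%). At the 1.5-fold limit the order turned, with 2281 and 1580 calls. The fitted spread between replicates (biological coefficient of variation) was 8.38% in the first set and 3.81% in the second. The counts are therefore not a measure of how broad the effect was in each set. Both sets called 2312 genes in the same direction and 245 in opposite directions. Gene names were at hand only for the genes that the study listed from these same libraries, 1348 of the tested ones, and 1037 of those (76.9%) were called. The counts of list members below are therefore to be read against 76.9% rather than 31.7%, and they are not independent evidence of a direction. A list with a share of calls near 76.9% does not stand apart from the named genes, which split into 480 higher, 557 lower and 311 not called, with a median log2 fold change of -0.11. When replicates were summed within each set, a fit with 1 residual degree of freedom, 581 genes were called in all, with 189 higher and 260 lower among the named ones, and without the set as a block 179 and 323 of the named ones were called. The calls of the fit on summed replicates are given beside each list's count. The median log2 fold change over all genes tested was 0.0080, with 0.0091 in replicates 1 and 2 and -0.0026 in replicates 3 and 4.

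**Figure D1:**
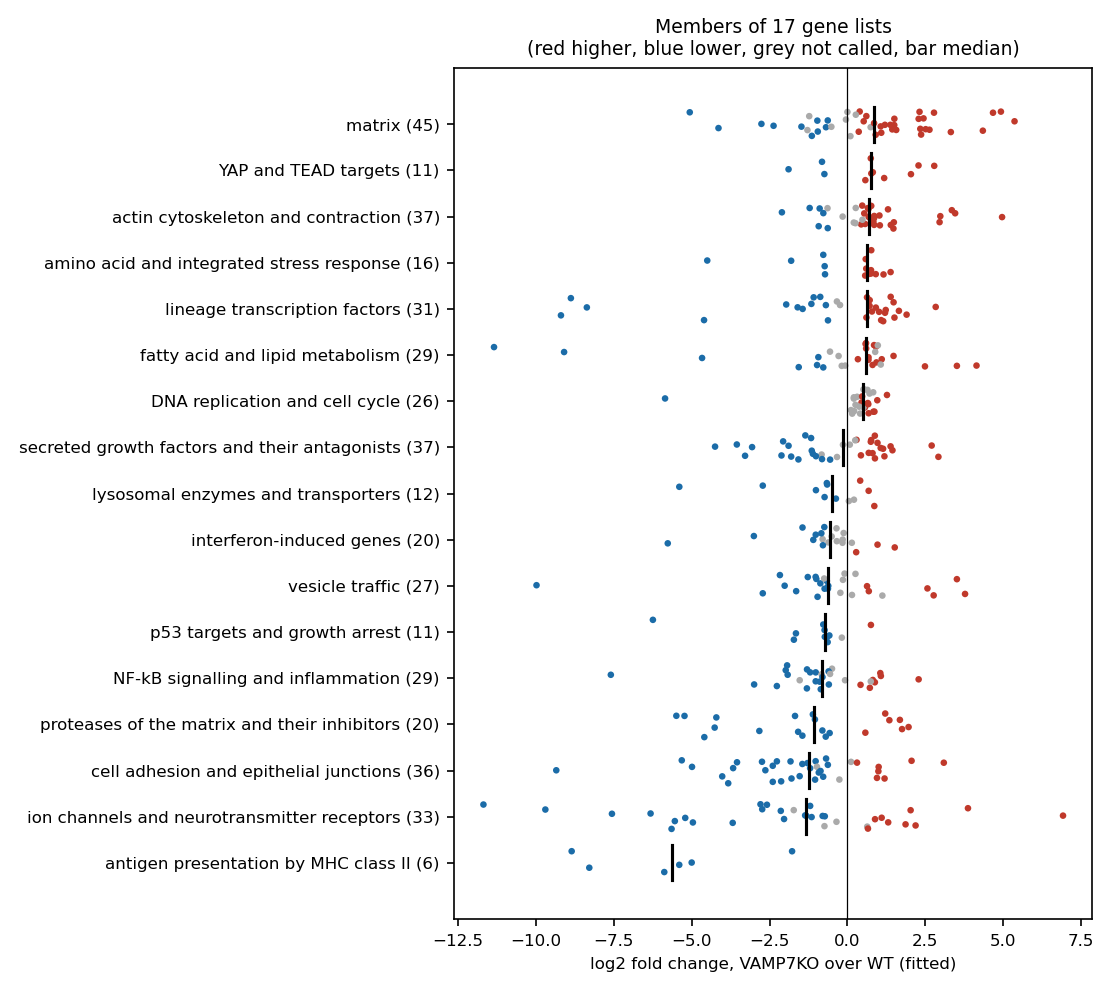
Fitted log2 fold change of VAMP7KO over WT (horizontal axis) for the tested members of 17 gene lists (rows, number tested in brackets), with red points for called higher, blue for called lower, grey for not called and a black bar for the list's median. The matrix, YAP and actin lists have medians above 0 and the MHC class II, ion channel, adhesion and protease lists medians below -1; the positions of genes with no or almost no counts in one genotype depend on the prior count of the fit.

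The targeted gene was examined first. Vamp7 (ENSRNOG00000008372) stood at 109, 110.3, 115 and 108 CPM in WT and at 51.5, 49.1, 41.2 and 41.8 CPM in VAMP7KO. The groups did not overlap, and the transcript remained at 41.6% of the WT mean. Its log2 fold change was -1.12 in replicates 1 and 2 and -1.42 in replicates 3 and 4 (edgeR adjusted p of the difference = 0.049). A count over the whole gene does not show the edit itself, so the reads that remain say nothing of the protein.

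Genes of vesicle traffic, the machinery that VAMP7 belongs to, were more often lower than higher in VAMP7KO. Of 39 listed genes 27 were tested, 14 were lower, 6 were higher and 7 were not called, with a median log2 fold change of -0.62 (-0.82 in replicates 1 and 2, -0.11 in replicates 3 and 4), so 20 of 27 were called, a share near that of the named genes. The list includes Vamp7, the edited gene, and the fall of Vamp7 says nothing of the other members. With replicates summed within each set, 3 higher and 6 lower calls were made. Sytl4, which encodes granuphilin, a Rab27 effector that docks secretory granules and lysosome-related organelles, moved furthest up: it stood at 1.78, 2.52, 1.336 and 1.52 CPM in WT and 33.7, 25.3, 19.8 and 19.5 CPM in VAMP7KO, a log2 fold change of 3.78 ± 0.14 (SE, n = 4 per genotype; edgeR adjusted p = 2.0e-07). The fitted rise was 3.78 in either set. Sort1, the sorting receptor that carries cargo from the Golgi to endosomes and lysosomes, went from 1.75, 2.73, 1.21 and 1.38 CPM to 14.5, 13.8, 7.698 and 6.57 CPM, higher in 4 of 4 VAMP7KO libraries than in any WT library. Abca1, the cholesterol and phospholipid exporter of the plasma membrane and endosomes, was scarcely detected in WT, at 0.202, 0.173, 0.326 and 0.106 CPM, and reached 3.71, 2.52, 1.68 and 1.79 CPM in VAMP7KO. Rab3il1, an exchange factor for Rab proteins, rose less but with little spread, from 8.18, 8.25, 8.18 and 8.66 CPM to 13.7, 13.7, 13.1 and 13.1 CPM.

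Other members of the same machinery fell. Mcoln3, a calcium channel of early endosomes and lysosomes, was at 9.12, 7.901, 13.3 and 11.5 CPM in WT and 1.09, 0.945, 2.04 and 2.45 CPM in VAMP7KO (-2.72 ± 0.16 on the log2 scale, edgeR adjusted p = 3.1e-06). Atp9a, a lipid flippase of recycling endosomes, fell from 75.5, 72.6, 49.9 and 46.5 CPM to 15.9, 13.6, 12.96 and 11.01 CPM. Both were lower in every VAMP7KO library than in any WT library, and neither fall differed between the sets by the test (edgeR adjusted p = 0.20 for Mcoln3 and 0.17 for Atp9a). Stx11, a SNARE of regulated secretion, had 5.82, 5.38, 4.76 and 4.88 CPM in WT against 2.09, 1.71, 3.19 and 3.47 CPM in VAMP7KO. Ston2, an adaptor that brings synaptotagmin into clathrin-coated pits, had 8.65, 6.73, 9.13 and 6.51 CPM against 1.86, 0.72003, 4.297 and 3.79 CPM. The falls of Stx11 (-1.54 in replicates 1 and 2, -0.54 in replicates 3 and 4) and Ston2 (-2.50 and -0.95) were larger in replicates 1 and 2 (edgeR adjusted p = 0.017 and 0.019).

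The lysosome itself was divided. Of 21 listed lysosomal enzymes and transporters 12 were tested, 7 were lower and 3 were higher, with a median log2 fold change of -0.51. On summed replicates, 1 higher and 3 lower calls were made. The 3 that rose were soluble glycosidases or their helper: Ctbs, which trims the chitobiose core of N-glycans, went from 22.9, 26.3, 23.2 and 22.2 CPM to 39.3, 45.5, 45.4 and 42.2 CPM, Manba, the beta-mannosidase, from 13.5, 12.1, 8.02 and 7.21 CPM to 16.4, 16.8, 15.4 and 15.1 CPM, and Gm2a, the ganglioside activator protein, by 0.41 on the log2 scale. Among those that fell were the membrane proteins Mcoln3, Cln3, the protein lost in a juvenile storage disease (from 13.5, 15.8, 9.03 and 9.34 CPM to 5.87, 8.64, 7.84 and 7.18 CPM), and Mfsd12, a cysteine importer (from 12.5, 10.9, 17.1 and 16.1 CPM to 5.87, 3.6002, 10.5 and 9.05 CPM). Rragd, a small GTPase that tethers mTORC1 to the lysosome, was also lower, at 8.51, 7.73, 6.39 and 5.16 CPM in WT and 4.08, 6.35, 3.08 and 3.47 CPM in VAMP7KO and 1 VAMP7KO library reached into the WT range. The call of Cln3 was lost without WT replicate 2 (edgeR adjusted p = 0.051).

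**Figure D2:**
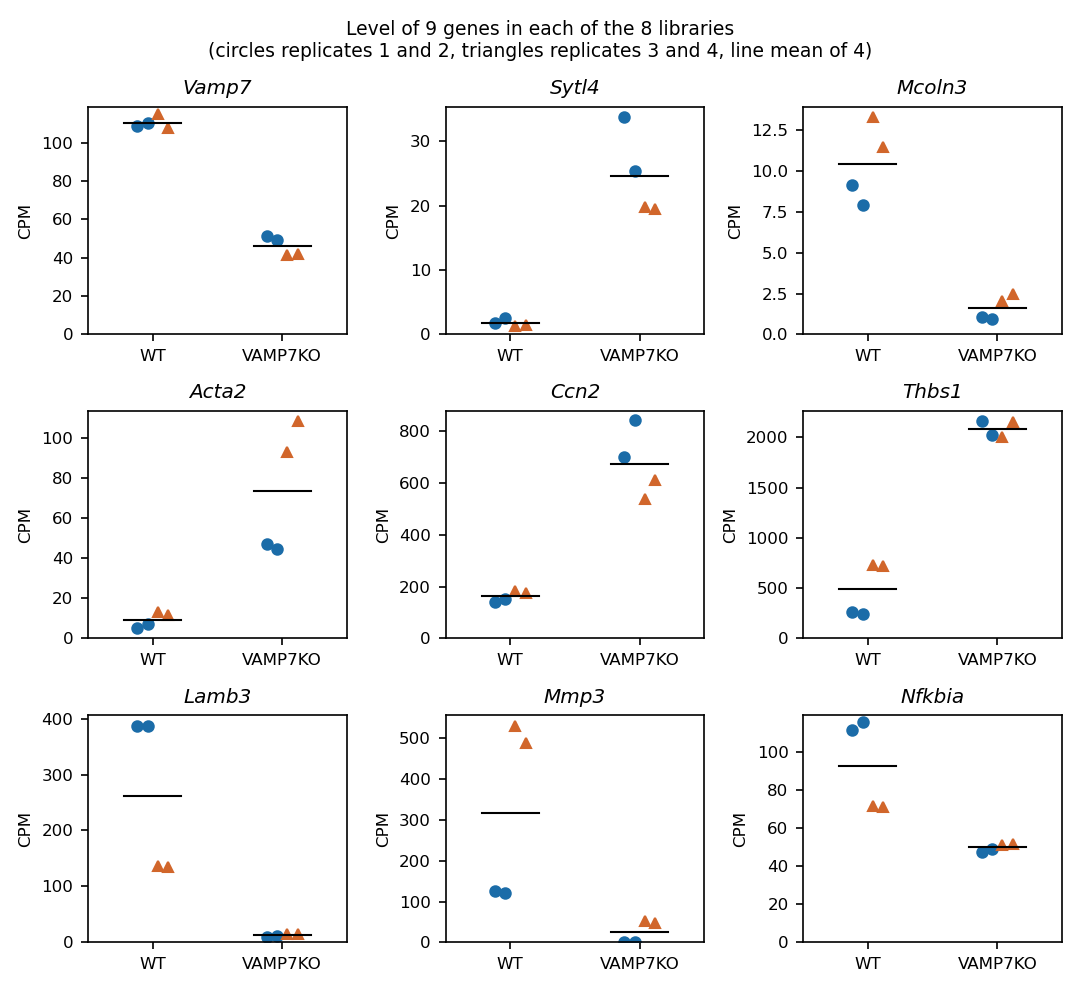
Level of 9 genes in CPM (vertical axes, each from 0) in the 4 WT and 4 VAMP7KO libraries, with circles for replicates 1 and 2, triangles for replicates 3 and 4 and a line at the mean of 4. In all 9 the VAMP7KO libraries lie entirely above (Sytl4, Acta2, Ccn2, Thbs1) or entirely below (Vamp7, Mcoln3, Lamb3, Mmp3, Nfkbia) the WT libraries.

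Most of the tested transcripts of the actin cytoskeleton were higher in VAMP7KO. The list of 44 genes for actin filaments, focal adhesions and contraction had 37 tested members, of which 25 were higher, 6 were lower and 6 were not called, and its median log2 fold change was 0.68 (0.80 in replicates 1 and 2, 0.66 in replicates 3 and 4). Within replicates 1 and 2 alone 27 members were higher, beside 435 of the 1348 named genes and 15.5% of all genes tested there. Within replicates 3 and 4 alone 25 were higher, beside 484 of the named genes and 20.7% of all genes tested there. The fit on summed replicates gave 12 higher and 0 lower calls. Acta2, the smooth muscle alpha-actin that marks contractile fibroblasts, was at 5.35, 6.97, 13.1 and 11.9 CPM in WT and 47.3, 44.8, 93.3 and 108 CPM in VAMP7KO, so the lowest VAMP7KO library had more than the highest WT one by a wide margin (2.96 ± 0.096 on the log2 scale, edgeR adjusted p = 8.5e-08). Its relative Actg2, the enteric smooth muscle actin, was close to the floor in WT replicates 1 and 2 and reached 0.8286, 0.945, 10.4 and 14.8 CPM in VAMP7KO against 0.202, 0.138, 0.913 and 1.13 CPM in WT. Fhl1, a LIM protein of stress fibres and muscle, went from 65.3, 68.8, 183 and 186 CPM to 1416, 1399.6, 1023 and 1134 CPM. That gain was larger in replicates 1 and 2 (4.39) than in replicates 3 and 4 (2.54; edgeR adjusted p of the difference = 1.8e-07). Limch1, which activates non-muscle myosin II, rose from 0.269, 0.242, 0.326 and 0.424 CPM to 8.92, 7.34, 10.6 and 13.1 CPM, with a fitted change of 4.97 in either set.

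The abundant tropomyosins, which wrap actin filaments and set which myosins may bind, rose by smaller amounts. Tpm4 stood at 863, 942, 1178 and 1131 CPM in WT and 1426, 1403, 1994 and 2076 CPM in VAMP7KO. Tpm1 stood at 132, 145, 299 and 315 CPM and 287, 315, 564 and 634 CPM, overlapping between genotypes only because WT replicates 3 and 4 held about as much as VAMP7KO replicates 1 and 2. Tpm2 stood at 284, 309.9, 145 and 150.3 CPM and 376, 441, 343 and 363 CPM. The log2 fold changes were 0.73, 1.04 and 0.86 in that order. Myh10, the heavy chain of non-muscle myosin IIB, and Csrp1, a LIM protein that bundles actin, rose by 0.57 and 0.68. Falling members were Tns4, a tensin that lacks the actin-binding part (from 35.3, 35.8, 16.5 and 15.9 CPM to 3.45, 4.28, 7.59 and 7.79 CPM), Tns1, which couples integrins to actin (-0.89 on the log2 scale), and Capg, a protein that caps filament ends (from 316, 347, 306 and 295 CPM to 129, 153, 190.1 and 203 CPM). Actg1, the cytoplasmic gamma-actin, was listed at only 8.48, 10.9, 6.16 and 5.41 CPM in WT and 4.28, 4.01, 6.44 and 4.69 CPM in VAMP7KO and was not called in the pooled fit (edgeR adjusted p = 0.066), though it was under several other settings, among them without WT replicate 4 or VAMP7KO replicate 3 (adjusted p = 0.037 and 0.014); near-identical copies of this gene can split its reads, so its value is uncertain. Summed smooth muscle markers, all 7 of them also in the actin list, were 161 to 323 CPM in WT and 429 to 493 CPM in VAMP7KO. Tpm2 made up most of both sums. Of the 5 markers tested 4 were higher and 1 lower, and their part in the result was not tested.

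Actin and transcription are tied through the coactivators YAP and MRTF. YAP enters the nucleus when cells are spread and tense and works through TEAD proteins, which bind the letters CATTCC. MRTF is freed when actin monomers are used up and works through SRF, which binds the CArG box. All 11 genes listed as YAP and TEAD targets or partners were tested, and 8 were higher and 3 lower, with a median log2 fold change of 0.77 (0.70 in replicates 1 and 2, 0.84 in replicates 3 and 4). Summing replicates within each set gave 4 higher and 1 lower calls. The classical target Ccn2, a matricellular growth factor, was at 142, 152, 181 and 174 CPM in WT and 702, 843, 538 and 611 CPM in VAMP7KO (2.04 ± 0.14 on the log2 scale, edgeR adjusted p = 8.9e-06). Ccn1, of the same family, went from 199, 252, 498 and 544 CPM to 564, 719, 934 and 954 CPM. In both, every VAMP7KO library lay above every WT library, and both rises were larger in replicates 1 and 2. Ankrd1, a nuclear and sarcomeric ankyrin repeat protein, rose from 6.12, 7.004, 3.42 and 3.93 CPM to 29.8, 26.9, 40.5 and 44.1 CPM, more in replicates 3 and 4 (3.53) than in replicates 1 and 2 (2.11). Thbs1, thrombospondin 1, a matrix protein that releases TGF-beta from its latent form, was already at 258, 246, 727 and 723 CPM in WT and reached 2167, 2028, 2000.1 and 2150.0 CPM in VAMP7KO.

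The coactivator itself and a secreted partner went the other way. Yap1 was at 493, 460.0, 458 and 448 CPM in WT and 296, 282, 266 and 270.1 CPM in VAMP7KO (-0.74 ± 0.055 on the log2 scale, edgeR adjusted p = 1.3e-05), with log2 fold changes of -0.72 and -0.76 within the sets. Wnt5a, a non-canonical Wnt ligand, went from 20.8, 18.6, 29.5 and 28.9 CPM to 11.5, 8.82, 19.3 and 16.9 CPM. Amot, a junction protein that holds YAP in the cytoplasm, and Tgfb2, a TGF-beta ligand, rose by 0.77 and 0.75.

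The stretches before the start of some of these genes are shown because they hold the letters bound by these factors. RefSeq promoters of the GRCr8 assembly, 250 bases before to 50 after the start, were searched on both strands with 1 window per gene symbol. CATTCC was found in 4 of the 8 windows of the YAP list against 3807 of 27457 windows in all (13.9%). Of these 4 genes 3 were higher and 1, Yap1 itself, lower, beside 8 higher and 3 lower of all 11 list members. A CArG box was found in 7 of 37 windows of the actin list (18.9%) against 450 in all (1.64%). Of the 7 genes 5 were higher and 2, Actg1 and Svil, were not called, beside 25 higher of the 37 tested list members. These counts do not set genes with a motif apart from their lists. Matches of 2 of the motifs searched in this report shared bases in 41 of the 27457 windows. Only the 250 bases before the start are printed, 5′ to 3′ on the strand of the gene, with the matched letters in capitals (CATTCC or, read on the other strand, GGAATG for the first 3 genes, the CArG box for Fhl1 and Lima1). Lima1, which encodes a LIM protein that crosslinks actin filaments and rose by 0.86, was taken after its values were seen.
Ccn1, GRCr8 chr2:237225690-237225939, minus strand: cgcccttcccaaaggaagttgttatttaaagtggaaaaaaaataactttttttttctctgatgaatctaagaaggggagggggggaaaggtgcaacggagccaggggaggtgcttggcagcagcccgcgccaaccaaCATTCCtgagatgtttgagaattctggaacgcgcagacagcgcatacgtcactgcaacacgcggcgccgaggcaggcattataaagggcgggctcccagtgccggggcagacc
Ccn2, GRCr8 chr1:22624615-22624864, minus strand: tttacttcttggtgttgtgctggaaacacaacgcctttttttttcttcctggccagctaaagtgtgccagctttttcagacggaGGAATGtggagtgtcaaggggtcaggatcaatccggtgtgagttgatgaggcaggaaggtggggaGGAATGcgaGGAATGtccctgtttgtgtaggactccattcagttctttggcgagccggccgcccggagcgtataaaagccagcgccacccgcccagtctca
Thbs1, GRCr8 chr3:125510000-125510249, plus strand: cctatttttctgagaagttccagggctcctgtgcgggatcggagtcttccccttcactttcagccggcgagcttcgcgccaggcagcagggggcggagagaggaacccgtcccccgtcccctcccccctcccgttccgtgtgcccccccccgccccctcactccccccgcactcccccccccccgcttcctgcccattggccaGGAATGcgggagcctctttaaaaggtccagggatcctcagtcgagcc
Fhl1, GRCr8 chrX:139638246-139638495, plus strand: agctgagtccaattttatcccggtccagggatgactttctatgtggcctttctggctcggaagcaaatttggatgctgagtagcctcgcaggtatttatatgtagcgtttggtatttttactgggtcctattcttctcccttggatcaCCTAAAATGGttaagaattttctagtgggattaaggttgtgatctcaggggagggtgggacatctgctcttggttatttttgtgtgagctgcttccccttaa
Lima1, GRCr8 chr7:132880344-132880593, minus strand: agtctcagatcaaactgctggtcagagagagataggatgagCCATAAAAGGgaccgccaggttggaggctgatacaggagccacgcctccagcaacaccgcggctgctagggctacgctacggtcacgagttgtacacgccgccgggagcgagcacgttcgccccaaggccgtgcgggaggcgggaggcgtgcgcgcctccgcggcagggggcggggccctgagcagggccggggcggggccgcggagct

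In these stretches Ccn2 held 3 copies of the TEAD letters, at 166, 101 and 92 bases before the start, whereas Ccn1 held 1 at 113 and Thbs1 held 1 at 47 bases before it. A match is a description of the letters and does not show that a factor binds there.

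Matrix genes made up the list with the highest median. Of 53 genes for collagens, glycoproteins and proteoglycans 45 were tested, 27 were higher, 10 were lower and 8 were not called, with a median log2 fold change of 0.86 (0.60 in replicates 1 and 2, 1.12 in replicates 3 and 4). With replicates summed within each set, 15 higher and 3 lower calls were made. Lum and Dcn, proteoglycans that bind collagen fibrils and space them, rose most of the list: Lum stood at 5.75, 6.11, 1.336 and 1.698 CPM in WT and 261, 313, 47.9 and 45.02 CPM in VAMP7KO. Dcn, decorin, went from 0.0673, 0, 0.196 and 0 CPM to 1.72, 1.94, 2.54 and 2.53 CPM (4.93 ± 0.50 on the log2 scale, edgeR adjusted p = 9.8e-05). WT levels of Dcn were near the floor. The level of Lum was higher in replicates 1 and 2 of both genotypes, and its fold changes were 5.59 and 4.94 within the sets (edgeR adjusted p of the difference = 0.054). Abi3bp, a secreted protein that binds collagen and integrins, rose from 3.43, 2.73, 1.27 and 1.56 CPM to 94.6, 82.4, 30.5 and 30.7 CPM. Col3a1, the alpha chain of collagen III that is laid down in young connective tissue, rose from 174, 175, 56.5 and 57.6 CPM to 1323, 1300.0, 206 and 194 CPM. Col12a1, a collagen that decorates fibrils under tension, was at 102, 93.3, 113 and 112 CPM and 289, 259, 213 and 214 CPM. Cilp, a matrix protein of cartilage that binds TGF-beta, shows how much the set could weigh: it went from 2.96, 2.28, 0.847 and 0.743 CPM to 39.5, 55.5, 2.15 and 1.63 CPM, a gain of 4.17 in replicates 1 and 2 and of 1.25 in replicates 3 and 4.

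A laminin chain and a fibrillin stood among those that fell. Lamb3, the beta chain of laminin 332, on which epithelial cells rest, was at 387, 387, 136 and 134 CPM in WT and 10.4, 10.9, 15.9 and 14.9 CPM in VAMP7KO, -4.14 ± 0.37 on the log2 scale (edgeR adjusted p = 4.4e-05). Fbn1, fibrillin 1, the core of microfibrils, fell from 5.75, 4.76, 4.07 and 2.9001 CPM to 0.0331, 0, 0.107 and 0.367 CPM. Thbs2, a thrombospondin that unlike Thbs1 does not release TGF-beta, fell from 121, 99.2, 43.6 and 44.1 CPM to 11.6, 12.5, 14.97 and 15.01 CPM while Thbs1 rose. Col6a1, a chain of the beaded filaments around cells, was among the most abundant transcripts of the list and went from 2795, 2884, 2149 and 2151 CPM to 1170.5, 1186, 1379.9 and 1338 CPM. Tnr, tenascin R, mostly a brain matrix protein, had 21.6, 17.1, 1.56 and 1.73 CPM against 1.46, 1.26, 1.18 and 0.489 CPM. Summed mesenchymal markers, 7 of 13 of them members of this list, moved the same way as its median, with 6 of the 9 tested markers higher and 2 lower, and their part in the result was not tested.

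Proteases of the matrix and their inhibitors were more often lower than higher. All 20 tested members of the list of 24 proteases and inhibitors were called, 14 lower and 6 higher, with a median log2 fold change of -1.08 (-1.28 and -1.01 in the 2 sets). On summed replicates, 5 higher and 6 lower calls were made. Mmp16, a membrane-bound metalloprotease that activates others at the cell surface, fell from 13.7, 11.9, 6.23 and 7.11 CPM to 0.464, 0.27001, 0.0358 and 0.0816 CPM (-5.49 ± 0.27 on the log2 scale, edgeR adjusted p = 1.0e-06). The stromelysins Mmp3 and Mmp10, secreted enzymes of broad range, were far more abundant: Mmp3 stood at 126, 122, 529.7 and 489 CPM in WT and 2.12, 2.03, 53.6 and 47.3 CPM in VAMP7KO. Mmp10 stood at 83.9, 87.1, 119.9 and 115 CPM and 0.265, 0.585, 16.3 and 15.7 CPM. Both fell further in replicates 1 and 2 than in replicates 3 and 4, with log2 fold changes of -5.89 and -3.33 for Mmp3 and -7.72 and -2.88 for Mmp10 (edgeR adjusted p of the difference = 2.1e-07 and 5.7e-08). Plaur, the receptor that holds urokinase at the surface, fell from 43.4, 52.5, 83.5 and 83.9 CPM to 23.1, 22.01, 41.998 and 41.6 CPM, with log2 fold changes of -1.09 and -1.002 within the sets. On the other side, Plat, the tissue plasminogen activator, rose from 17.97, 18.3, 16.5 and 16.1 CPM to 72.6, 93.2, 41.3 and 39.2 CPM. Serpinf1, a secreted member of the serpin family that blocks vessel growth, rose from 58.2, 65.1, 75.8 and 73.6 CPM to 320.2, 382, 191 and 209 CPM. Its rise is not a measure of protease inhibition. Adamts1, an aggrecan-cleaving protease, rose from 54.4, 56.9, 50.4 and 51.4 CPM to 266, 282, 104 and 108 CPM.

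Cell adhesion genes were mostly lower. Among 36 tested of 50 listed genes for cadherins, integrins, keratins and junctions, 26 were lower and 7 higher, with a median log2 fold change of -1.24 (-1.49 and -0.94 in the 2 sets). The fit on summed replicates gave 4 higher and 11 lower calls. Integrin chains stood on both sides. Itga3, which binds laminin in epithelia, was at 1195, 1254, 1947 and 1929.7 CPM in WT and 454, 406, 942 and 921 CPM in VAMP7KO. Itgb4, the hemidesmosomal chain that binds laminin 332, was at 34.5, 38.6, 19.9 and 17.5 CPM and 2.88, 3.51, 9.13 and 7.54 CPM, and Itga2, a collagen-binding chain, at 1.41, 1.17, 1.66 and 1.17 CPM and 0.0663, 0.27001, 0.501 and 0.204 CPM. Itga7, the laminin receptor of muscle, rose and went from 38.6, 41.2, 48.8 and 50.7 CPM to 94.6, 89.9, 115 and 111 CPM (1.19 ± 0.053, edgeR adjusted p = 5.5e-07). Itga8, a receptor for fibronectin and nephronectin that is needed in kidney development, went from 2.12, 1.93, 1.24 and 1.03 CPM to 19.7, 15.9, 8.81 and 10.1 CPM, and Itgbl1, a secreted integrin-like protein, from 31.7, 29.7, 18.4 and 17.9 CPM to 164, 192, 50.4 and 56.4 CPM.

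Cadm1, an immunoglobulin-type adhesion molecule of epithelia and synapses, was at 14.1, 13.7, 18.8 and 17.05 CPM in WT and 0.862, 0.45002, 0.179 and 0.449 CPM in VAMP7KO. Cdh3, P-cadherin, was at 91.99, 91.4, 108 and 105 CPM and 62.1, 56.2, 55.2 and 56.97 CPM. Cdh8, a cadherin of the nervous system, had 1 count over the 4 VAMP7KO libraries against 1091 over the WT ones, a ratio of 972 (95% exact interval 174 to 38426, counting error only). Krt8 fell from 643, 732, 846 and 867 CPM to 520.0, 568, 449 and 459 CPM, less than Krt14, the keratin of basal layers, which went from 13.2, 13.6, 1.01 and 1.77 CPM to 0.795, 1.04, 0.0716 and 0 CPM. Of the 11 epithelial markers 9 are members of this list, and of the 7 tested 6 were lower and the last, Krt80, was not called (0.12, edgeR adjusted p = 0.33). The part of epithelial identity in the fall of this list was not tested.

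Inflammatory genes were more often lower than higher. NF-kB is a transcription factor held in the cytoplasm by inhibitors, and it switches on the genes of some of them. The activity of NF-kB was not measured here. Of 40 listed genes of this pathway 29 were tested, 16 were lower, 7 higher and 6 not called, with a median log2 fold change of -0.83 (-1.24 in replicates 1 and 2, -0.47 in replicates 3 and 4). The share called was near the 76.9% of the named genes. Summing replicates within each set gave 2 higher and 7 lower calls. The inhibitors Nfkbia and Nfkbie both fell: Nfkbia was at 111, 116, 71.7 and 70.98 CPM in WT and 47.5, 48.96, 51.2 and 51.7 CPM in VAMP7KO. Nfkbie was at 28.5, 29.6, 31.6 and 32.9 CPM and 19.6, 18.9, 22.02 and 20.1 CPM, and Nfkb2, the p100 precursor subunit, at 54.7, 64.7, 60.2 and 57.01 CPM and 36.3, 38.03, 41.1 and 41.4 CPM. In VAMP7KO the level of Nfkbia hardly varied over its 4 libraries, whereas WT replicates 1 and 2 lay above WT replicates 3 and 4. Traf1, an adaptor of TNF receptors, fell from 12.2, 12.9, 10.04 and 9.76 CPM to 4.74, 4.14, 4.76 and 4.49 CPM. Birc3, an inhibitor of apoptosis that ubiquitinates RIPK1, fell from 14.2, 18.7, 13.005 and 13.9 CPM to 4.11, 3.56, 4.01 and 3.997 CPM (-1.92 ± 0.13, edgeR adjusted p = 8.0e-06). Its relative Birc2 fell from 119, 112, 103 and 101 CPM to 48.8, 42.8, 41.96 and 42.8 CPM.

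Il6, a cytokine of the acute phase, fell, and was at 8.75, 8.04, 7.69 and 8.38 CPM in WT and 4.81, 4.995, 3.83 and 5.26 CPM in VAMP7KO. Vcam1, the receptor to which leukocytes attach, was at 10.5, 9.87, 9.13 and 8.98 CPM and 3.02, 4.5002, 4.69 and 4.69 CPM. Lcn2, lipocalin 2, which binds bacterial siderophores and marks tubular injury, was at 2.29, 2.45, 3.42 and 3.32 CPM and 0.298, 0.36001, 1.36 and 1.22 CPM. Cxcl10, a chemokine for T cells, was at 23.96, 26.2, 6.94 and 6.47 CPM and 7.49, 6.44, 6.302 and 6.199 CPM, so its fall lay in replicates 1 and 2 (-1.84, against -0.10 in replicates 3 and 4; edgeR adjusted p of the difference = 3.2e-05). Without any 1 of the WT or VAMP7KO libraries of replicates 1 and 2 the pooled call of Cxcl10 was lost (adjusted p of 0.072 to 0.12). Nlrp3, the sensor of an inflammasome, rose from 8.61, 8.56, 14.1 and 15.4 CPM to 15.8, 13.6, 35.1 and 38.2 CPM, and Tnfrsf1b, the second TNF receptor, rose from 2.62, 3.07, 3.91 and 4.598 CPM to 6.73, 6.795, 8.02 and 8.03 CPM. Il1rl1, the receptor of interleukin 33, was at 0.841, 0.656, 21.9 and 25.3 CPM and 1.13, 0.36001, 49.02 and 51.1 CPM, with higher levels in replicates 3 and 4 of either genotype, and its call was lost without WT replicate 3, WT replicate 4 or VAMP7KO replicate 4 (edgeR adjusted p of 0.069, 0.051 and 0.061).

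The kappa B site, the sequence that NF-kB binds, was searched in the same promoter windows and found in 11 of 32 windows of the list (34.4%) against 1135 of 27457 (4.13%). Of the 8 tested genes with a site 7 were lower, 1 was not called and 0 were higher, beside 16 lower and 7 higher of all 29 tested members. The list was chosen for this pathway with earlier results of these data known, and a part of NF-kB in the falls was not tested. Shown are the stretches of an inhibitor, of a subunit and of a surface receptor that fell, with the site in capitals.
Nfkbia, GRCr8 chr6:78597073-78597322, minus strand: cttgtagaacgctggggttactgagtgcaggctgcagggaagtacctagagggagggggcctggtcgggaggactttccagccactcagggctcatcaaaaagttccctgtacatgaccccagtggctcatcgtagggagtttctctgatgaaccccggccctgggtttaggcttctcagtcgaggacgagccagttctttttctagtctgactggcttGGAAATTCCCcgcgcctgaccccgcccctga
Nfkb2, GRCr8 chr1:255108124-255108373, plus strand: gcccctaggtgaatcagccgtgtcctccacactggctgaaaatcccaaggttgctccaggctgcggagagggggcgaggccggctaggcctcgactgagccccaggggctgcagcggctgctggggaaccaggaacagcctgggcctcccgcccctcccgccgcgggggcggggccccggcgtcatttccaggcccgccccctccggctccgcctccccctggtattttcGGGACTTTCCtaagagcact
Vcam1, GRCr8 chr2:206742784-206743033, minus strand: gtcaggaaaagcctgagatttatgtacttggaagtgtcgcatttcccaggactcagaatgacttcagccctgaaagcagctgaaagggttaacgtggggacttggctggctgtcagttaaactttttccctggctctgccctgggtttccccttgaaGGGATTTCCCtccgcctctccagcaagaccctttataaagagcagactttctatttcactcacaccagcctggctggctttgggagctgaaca

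The sites lay 31, 20 and 93 bases before the start of Nfkbia, Nfkb2 and Vcam1. As above, the letters do not show binding.

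MHC class II genes, whose products present peptides loaded in late endosomes to T cells, were all lower. Each of the 6 listed genes was tested and called. In each, all 4 VAMP7KO libraries lay below all 4 WT libraries, as for 463 of the 1348 named genes and 8.79% of all genes tested. The median log2 fold change was -5.64, or -3.66 with genes at the floor set to it. With replicates summed within each set, 0 higher and 5 lower calls were made. RT1-Db1, a beta chain, was at 17.8, 22.1, 12.4 and 10.999 CPM in WT and 0.365, 0.18001, 0.501 and 0.367 CPM in VAMP7KO. Cd74, the invariant chain that guards the empty groove on the way to endosomes, was at 3.13, 3.42, 2.803 and 3.395 CPM and 0.166, 0.04500, 0 and 0.163 CPM. RT1-DMb, a chain of the peptide exchanger, was at 1.65, 2.105, 1.17 and 0.849 CPM and 0.497, 0.315, 0.394 and 0.408 CPM, the smallest fall of the 6. The alpha chains RT1-Ba (2.29, 3.002, 1.27 and 1.77 CPM) and RT1-Da (0.673, 1.104, 1.79 and 2.05 CPM) had 0 counts in all 4 VAMP7KO libraries, at least 15.4-fold and 10.4-fold lower than WT when set against 3 counts per library. RT1-Bb had 1 count over the 4 VAMP7KO libraries and 97 over the WT ones, a ratio of 86.4 (95% exact interval 15.1 to 3448, counting error only). Near-identical relatives within this family can share reads. Summed leukocyte markers, which include none of these genes, were 10.6 to 36.8 CPM in WT and 4.57 to 6.48 CPM in VAMP7KO, with 4 of 6 tested lower and 2 higher. Among them Ptprc, the CD45 phosphatase of leukocytes, had 12.5, 12.2, 2.74 and 3.18 CPM in WT and 0 counts in VAMP7KO, at least 56.8-fold lower. The part of such cells or such expression in the result was not tested.

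Genes induced by interferon were mixed. Of 28 listed genes 20 were tested, 8 lower, 3 higher and 9 not called, with a median log2 fold change of -0.56 (-0.92 in replicates 1 and 2, -0.086 in replicates 3 and 4). On summed replicates, 1 higher and 0 lower calls were made, and without the set as a block 1 and 4. Mx1, a GTPase that blocks viral replication, was at 20.4, 19.6, 2.38 and 1.87 CPM in WT and 0, 0.135, 0.107 and 0.449 CPM in VAMP7KO, and its WT level in replicates 1 and 2 was far above that in replicates 3 and 4. Mx2 was at 5.96, 5.35, 0.0978 and 0.177 CPM and 0.464, 0.45002, 0.179 and 0.0816 CPM, so both genotypes were near the floor in replicates 3 and 4 (edgeR adjusted p of the difference between sets = 0.012). Rnf213, a giant ubiquitin ligase, fell from 441, 432, 204 and 219 CPM to 109, 95.9, 128 and 115 CPM. Ifit2, which binds viral RNA, rose from 5.32, 5.83, 7.95 and 7.92 CPM to 23.4, 19.5, 16.5 and 17.8 CPM and Gbp5, a guanylate-binding protein, from 4.31, 5.93, 2.87 and 3.96 CPM to 7.42, 6.795, 9.85 and 9.09 CPM. Isg20, an exonuclease, fell by 0.74 on the log2 scale, and Psmb9, a subunit of the immunoproteasome, rose by 0.28 (edgeR adjusted p = 0.043), a call lost in 6 of the 8 fits that left out 1 library (adjusted p of 0.059 to 0.12 there).

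Growth control showed lower arrest genes and, in one set, higher replication genes. Among 13 listed p53 targets and arrest genes 11 were tested, 9 were lower, 1 higher and 1 not called, with a median log2 fold change of -0.73 (-0.95 and -0.51 in the 2 sets). The fit on summed replicates gave 0 higher and 2 lower calls, and without the set as a block 0 and 3. Cdkn1a, the p21 inhibitor of cyclin-dependent kinases, was at 164, 168, 174 and 174 CPM in WT and 128, 124, 94.5 and 95.2 CPM in VAMP7KO. Ccng1, cyclin G1, which feeds back on p53, was at 378, 354, 624 and 595 CPM and 295, 286, 349 and 339.5 CPM. Rprm, reprimo, which halts cells before mitosis, was at 17.1, 19.5, 2.71 and 2.405 CPM and 0.199, 0.315, 0 and 0.0408 CPM, nearly lost in every VAMP7KO library. Bid, which links death receptors to mitochondria, was at 26.3, 25.8, 1.89 and 2.55 CPM and 4.71, 4.59, 2.08 and 1.47 CPM, a difference seen mainly in replicates 1 and 2 and not called without VAMP7KO replicate 1 (edgeR adjusted p = 0.055), and Eda2r, a death receptor of the TNF family, fell by 1.72. The member that rose was Sesn2, a leucine sensor that p53 and the stress factor ATF4 both induce, from 42.5, 47.4, 86.6 and 85.1 CPM to 114, 104, 102 and 101 CPM.

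The replication list had 26 tested members of 27, of which 10 were higher, 1 lower and 15 not called, with a median log2 fold change of 0.52. The higher members numbered 1 with replicates summed within each set, 0 without the set as a block, 5 in the fit of all 12 libraries and 17 with no filter on low counts. The sets differed: the median was 0.0019 in replicates 1 and 2, where 4 members were called higher in that set alone, and 0.86 in replicates 3 and 4, where 25 were. Of the 1348 named genes, 435 were called higher in replicates 1 and 2 alone and 484 in replicates 3 and 4 alone. The effect differed between the sets for 20 of 26, beside 419 of the 1348 named genes and 17.1% of all genes tested. Without VAMP7KO replicate 2 the pooled fit called 20 members higher. Mybl2, a transcription factor of the late cell cycle, was at 56.7, 55.7, 24.9 and 25.1 CPM in WT and 119, 77.3, 86.2 and 83.2 CPM in VAMP7KO. Asf1b, a histone chaperone of the replication fork, was at 56.8, 54.6, 9.52 and 8.84 CPM and 80.9, 63.5, 28.3 and 29.3 CPM. Exo1, a nuclease of mismatch repair, was at 15.8, 18.9, 10.2 and 10.5 CPM and 22.01, 16.8, 29.8 and 29.4 CPM. In WT these genes were lower in replicates 3 and 4 than in replicates 1 and 2, while the VAMP7KO libraries lay above WT in replicates 3 and 4. The call of Exo1 was lost without any 1 library of replicates 3 and 4 (edgeR adjusted p of 0.052 to 0.081). Cenpu, a kinetochore protein, was not called in the pooled fit (edgeR adjusted p = 0.076) but was in replicates 3 and 4 alone (1.81, adjusted p = 3.1e-11), with 23.2, 24.5, 5.93 and 6.33 CPM in WT and 25.9, 20.5, 22.4 and 20.6 CPM in VAMP7KO. Gmnn, geminin, which keeps origins from firing again, rose by 0.71 and 0.41 within the sets, and Trip13, an ATPase of the spindle checkpoint, rose by 0.67 in the pooled comparison. The member that fell, Prps2, makes the sugar phosphate for nucleotides and is not a replication factor, and it went from 8.61, 7.901, 8.87 and 8.59 CPM to 0.232, 0, 0.179 and 0.122 CPM.

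**Figure D3:**
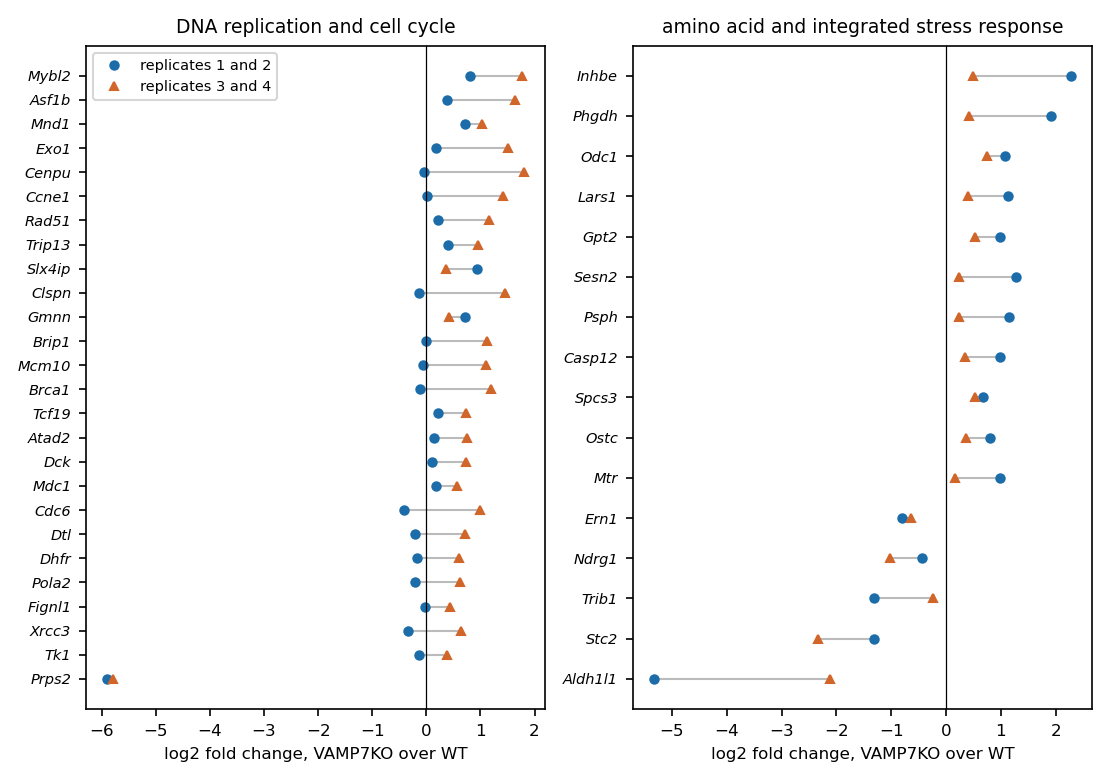
Fitted log2 fold change of VAMP7KO over WT (horizontal axes) within replicates 1 and 2 (circles) and within replicates 3 and 4 (triangles), joined by a line for each tested member of the replication list (left) and of the amino acid and integrated stress list (right). Replication genes moved further in replicates 3 and 4 (median 0.86 against 0.0019), and stress genes further in replicates 1 and 2 (median 0.98 against 0.30).

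Amino acid supply and the integrated stress response gave the opposite order of the sets. That response is run by ATF4, which raises enzymes for serine and other amino acids together with feedback regulators. All 16 tested members of 17 were called, 11 higher and 5 lower, with a median log2 fold change of 0.64 (0.98 in replicates 1 and 2, 0.30 in replicates 3 and 4). The effect differed between the sets for 14 of 16, beside 419 of the 1348 named genes and 17.1% of all genes tested. Summing replicates within each set gave 1 higher and 2 lower calls, and without the set as a block 4 and 2. Inhbe, an activin subunit raised by ATF4, was at 17.1, 17.4, 25.4 and 25.3 CPM in WT and 84.9, 82.6, 33.9 and 37.3 CPM in VAMP7KO. Phgdh, the first enzyme of serine synthesis, was at 15.3, 18.6, 35.9 and 36.8 CPM and 64.6, 63.6, 48.6 and 49.3 CPM, and Psph, the last one, at 48.9, 47.4, 66.2 and 68.96 CPM and 107, 108, 77.6 and 80.9 CPM. WT replicates 3 and 4 already held more of both enzymes than WT replicates 1 and 2, while the VAMP7KO libraries of all replicates lay above either. Odc1, the first enzyme of polyamine synthesis, rose from 277, 242, 526 and 516 CPM to 535, 562, 871 and 876 CPM. Stc2, a glycoprotein hormone, fell from 10.5, 9.42, 11.7 and 12.9 CPM to 3.78, 4.23, 2.43 and 2.45 CPM, and Ern1, the IRE1 sensor of unfolded protein in the ER, fell from 19.9, 16.6, 28.3 and 26.5 CPM to 12.4, 8.28, 17.2 and 18.1 CPM. Trib1, a pseudokinase, fell mainly in replicates 1 and 2 (-1.31 against -0.24) and was not called without VAMP7KO replicate 1 (edgeR adjusted p = 0.052), and Ndrg1, a stress and hypoxia gene, more in replicates 3 and 4 (-1.01 against -0.44).

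Secreted growth factors were evenly divided. Of 50 listed ligands and antagonists 37 were tested, with 16 higher, 16 lower and 5 not called and a median log2 fold change of -0.14 (-0.41 and -0.17 in the 2 sets). With replicates summed within each set, 7 higher and 10 lower calls were made. Sema3d, a repulsive guidance cue for vessels and axons, was at 52.2, 47.1, 64.7 and 62.5 CPM in WT and 365, 329, 388 and 389 CPM in VAMP7KO (2.71 ± 0.071, edgeR adjusted p = 2.3e-08). Vegfd, a ligand for lymphatic vessels, was at 1.21, 0.794, 1.37 and 1.91 CPM and 5.8997, 7.83, 13.9 and 13.3 CPM, and Vegfc, its closest relative, rose by 0.81. Fgf1, a fibroblast growth factor without a signal peptide that leaves cells by an unconventional route, was at 41.9, 38.3, 24.9 and 22.9 CPM and 132, 142, 51.02 and 51.6 CPM. Among those that fell, Wnt7a, an epithelial Wnt, was at 6.12, 5.97, 6.095 and 7.46 CPM and 0.497, 1.31, 0.501 and 0.408 CPM. Ptn, pleiotrophin, a heparin-binding growth factor, was at 13.3, 13.8, 1.43 and 2.02 CPM and 3.12, 3.11, 0.537 and 0.245 CPM, with fold changes of -2.12 and -2.09 within the sets although its level differed between them.

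Lipid genes rose more often than they fell. Of 33 listed genes of fatty acid and lipid metabolism 29 were tested, 15 higher, 7 lower and 7 not called, with a median log2 fold change of 0.60 (0.40 and 0.60 in the 2 sets). The share of calls was near the 76.9% of the named genes. On summed replicates, 6 higher and 4 lower calls were made. Slc27a6, a fatty acid transporter, stood at 22.2, 20.4, 1.99 and 2.51 CPM in WT and had no read in any of the 4 VAMP7KO libraries, which makes it at least 87.2-fold lower. Fads3, a desaturase of sphingoid bases, fell from 26.6, 26.3, 29.5 and 29.001 CPM to 1.56, 1.395, 0.931 and 0.489 CPM. Plin2, the coat protein of lipid droplets, fell from 120.3, 128, 129.9 and 120.1 CPM to 59.6, 65.1, 63.98 and 65.1 CPM, with log2 fold changes of -0.996 and -0.95 within the sets. Plpp3, a phosphatase of lysophosphatidic acid, rose from 26.4, 29.3, 11.6 and 12.1 CPM to 61.8, 73.9, 38.8 and 37.8 CPM, and Acsm2, a medium-chain acyl-CoA synthetase of kidney and liver mitochondria, rose from 2.15, 2.52, 3.59 and 3.395 CPM to 24.7, 28.3, 8.95 and 10.8 CPM. Akr1c14, a hydroxysteroid dehydrogenase, rose from 2.12, 1.48, 0.7497 and 0.495 CPM to 42.8, 52.2, 5.37 and 4.201 CPM. Acot2, a mitochondrial thioesterase, rose by 0.92, and Acadvl, which starts the oxidation of very long acyl chains, fell by 0.77.

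Transcription factors that set cell identity moved in both directions. The list of 50 had 31 tested members, 17 higher, 12 lower and 2 not called, with a median log2 fold change of 0.63 (0.75 and 0.34 in the 2 sets). The fit on summed replicates gave 7 higher and 6 lower calls. Eya1, a coactivator of kidney and muscle development, rose: it was at 64.7, 64.7, 57.7 and 55.3 CPM in WT and 186, 193, 160.1 and 153 CPM in VAMP7KO. Mkx, the tendon factor mohawk, was at 4.71, 5.59, 5.93 and 7.498 CPM and 35.8, 46.3, 10.9 and 12.03 CPM, and Prdm1, the repressor BLIMP1, at 2.02, 2.28, 2.25 and 1.84 CPM and 12.7, 11.97, 3.37 and 3.02 CPM, and both gained far more in replicates 1 and 2. Twist1, a driver of mesenchymal fate, rose by 0.63. Tfap2b, a factor of the distal nephron and neural crest, fell from 10.8, 11.01, 5.899 and 5.27 CPM to 0, 0.04500, 0 and 0 CPM, with 1 count over the 4 VAMP7KO libraries. Barx2, a homeobox factor of epithelia and muscle, fell from 8.88, 8.87, 3.78 and 5.13 CPM to 0, 0, 0 and 0.0408 CPM, also with 1 count. Sox9, a factor of tubule repair and cartilage, was at 61.97, 68.4, 78.6 and 69.8 CPM and 17.3, 18.1, 31.3 and 27.7 CPM, and Hand2, a factor of limb and heart mesenchyme, fell by 1.08.

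Channels and receptors fell more often than they rose, with some members lost and others gained almost entirely. Of 58 listed genes 33 were tested, 20 lower, 9 higher and 4 not called, with a median log2 fold change of -1.32 (-1.63 and -0.95 in the 2 sets). Summing replicates within each set gave 4 higher and 14 lower calls. Ntrk2, the receptor of the neurotrophin BDNF, was at 73.4, 67.8, 24.8 and 20.6 CPM in WT and had 1 count over the 4 VAMP7KO libraries against 5492 over the WT ones, a ratio of 4893 (95% exact interval 878 to 193291, counting error only). Aqp1, the water channel of the proximal tubule, was at 165, 146, 348 and 326 CPM and 1.96, 0.90004, 9.77 and 10.3 CPM (-5.65 ± 0.29, edgeR adjusted p = 1.3e-06). Ryr1, the calcium release channel of skeletal muscle, was at 7.03, 7.28, 3.096 and 3.08 CPM and 0, 0.04500, 0 and 0.204 CPM. Ano1, a calcium-activated chloride channel, was at 8.51, 7.38, 4.53 and 4.53 CPM and 2.35, 1.89, 1.07 and 0.856 CPM. On the other side stood a potassium channel and the partner of such channels: Kcnj16, an inward rectifier of the distal tubule, was at 0.639, 0.897, 0.0326 and 0.0354 CPM in WT and 88.6, 107, 1.93 and 2.53 CPM in VAMP7KO. Abcc9, the sulphonylurea receptor that gates ATP-sensitive potassium channels, was at 27.96, 25.3, 5.05 and 5.16 CPM and 446, 396, 67.5 and 67.6 CPM. The levels of both in VAMP7KO replicates 1 and 2 exceeded those in replicates 3 and 4, and their fold changes did not pass the test of a difference between sets (edgeR adjusted p = 0.63 and 0.20). Itpr1, an IP3-gated calcium channel of the ER, rose from 91.2, 76.8, 124 and 124 CPM to 281, 232, 253 and 247 CPM, and Gria1, an AMPA receptor subunit, from 4.51, 3.73, 0.88003 and 0.566 CPM to 13.2, 9.495, 4.37 and 4.12 CPM. Neuronal markers summed to 44.8 to 113 CPM in WT and 31.7 to 47.3 CPM in VAMP7KO. Ntrk2, Gria1 and Grin2b belong to both lists, and the part of neuronal markers in the result was not tested.

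The 10 named genes with the largest rise and the 10 with the largest fall that held in both sets included several not in the lists. Zdhhc2, a palmitoyl transferase, had 18.03, 19.2, 15.1 and 13.2 CPM in WT and 0 counts in VAMP7KO. Tfec, a factor of the family that controls lysosomal genes, had 13.8, 10.9, 1.76 and 2.44 CPM in WT and 0 counts in VAMP7KO, at least 53.6-fold lower. Mctp2, a calcium-binding membrane protein, had 10.9, 11.6, 4.302 and 3.501 CPM in WT and 1 count over the 4 VAMP7KO libraries. Abra, an actin-binding protein of muscle, rose from 0.168, 0.449, 0.0978 and 0.141 CPM to 9.91, 17.5, 0.859 and 0.897 CPM. Aspnl1 rose from 4.31, 5.35, 1.56 and 1.52 CPM to 256, 326, 8.45 and 7.75 CPM, and a gene known only as NEWGENE_1308171 rose from 0.303, 0.552, 2.31 and 2.23 CPM to 26.5, 34.4, 11.9 and 13.5 CPM.

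Several of the genes that fell are neighbours. In RefSeq's order of genes on the GRCr8 assembly, the longest run of named, tested genes with the same call held 11 genes, all lower: Dcun1d5, Mmp13, Mmp3, Mmp1, Mmp10, Birc2, Birc3, Yap1, Cfap300, Cep126 and Cntn5. The run was looked for after the values were seen, and the next-longest runs held 9 genes. RefSeq places 24 protein-coding genes from the first to the last of the run, 11 of which had a name and a test here. At one end Dcun1d5, a regulator of cullin ligases, was at 122, 128, 125 and 127 CPM in WT and 64.2, 66.1, 63.9 and 74.3 CPM in VAMP7KO. At the other Cntn5, a neural adhesion molecule, was at 16.1, 13.1, 10.3 and 9.27 CPM in WT and had 0 counts in VAMP7KO. Between them lie Yap1 and the metalloprotease and apoptosis inhibitor genes described above, and Mmp13, a collagenase, at 33.7, 33.5, 2.803 and 2.37 CPM and 10.7, 11.6, 0.752 and 1.02 CPM. Since the calls chose the run, its direction is no result, and as a description 8 of the 11 were at least 2-fold lower in both sets. The named neighbours on either side, Casp12 and Sesn3, were higher, by 0.67 and 0.98.

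**Figure D4:**
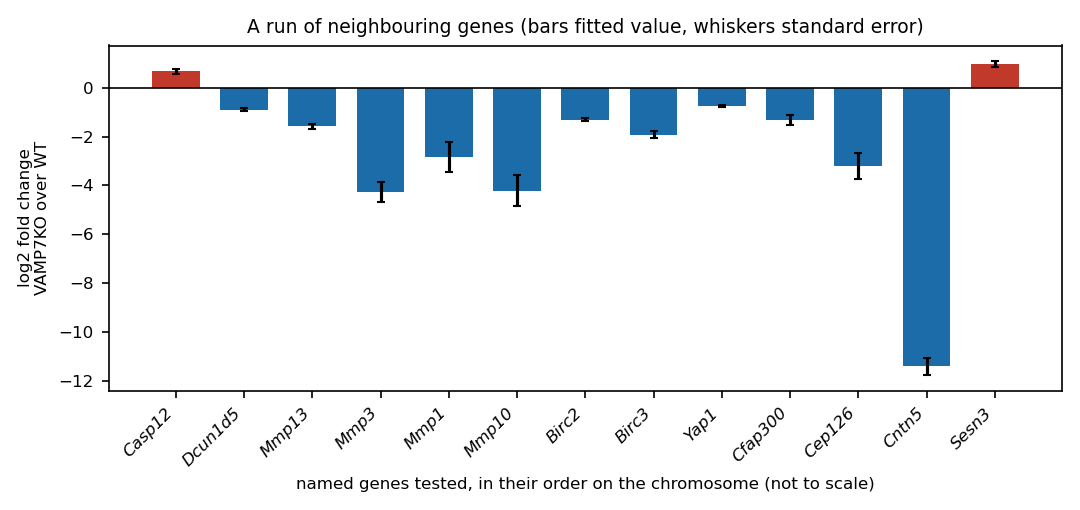
Fitted log2 fold change of VAMP7KO over WT (vertical axis; whiskers are standard errors) for the run of 11 neighbouring genes that fell (blue) and the named gene on either side that rose (red), in their order on the chromosome and not to scale. The falls ranged from -0.74 for Yap1 to the loss of Cntn5, whose bar depends on the prior count of the fit because VAMP7KO had 0 counts.

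How far the effect of the knockout depended on the set was tested with a term for genotype by set in the model. The difference was called for 2144 genes (17.1%), fewer without WT replicate 3 (1160), WT replicate 4 (1262) or VAMP7KO replicate 3 (1135), and for 1072 of them (8.55%) the fitted effects in the sets had opposite signs. Cox6a2, the heart and muscle form of a cytochrome oxidase subunit, turned from a gain to a loss: it was at 3.499, 4.38, 31.5 and 31.4 CPM in WT and 37.98, 47.03, 10.99 and 11.9 CPM in VAMP7KO, a log2 fold change of 3.43 in replicates 1 and 2 and of -1.46 in replicates 3 and 4. C1s, a protease of the complement cascade, was at 339, 297, 195 and 192 CPM and 141, 153, 243 and 256 CPM, lower in one set and higher in the other. Mfap5, a microfibril glycoprotein, was at 34.8, 40.3, 3.23 and 2.97 CPM and 16.5, 22.6, 8.88 and 8.69 CPM. Postn, periostin, a matrix protein of wounds that was picked after its values were seen, was at 3.03, 2.898, 0.359 and 0.5305 CPM and 0.331, 0.225, 4.05 and 4.98 CPM. For these 4 the pooled comparison made no call, although each set alone separated the genotypes.

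Other genes with a called difference between the sets are given by their values. Ca9, a carbonic anhydrase raised by hypoxia, was at 159, 172, 35.04 and 35.6 CPM in WT and 188, 175, 187 and 185 CPM in VAMP7KO, so that WT replicates 3 and 4 stood apart, and its pooled call was lost without any 1 library of replicates 3 and 4 (edgeR adjusted p of 0.058 to 0.12). Plekhg4 was at 177, 177, 17.1 and 16.8 CPM and 17.9, 18.3, 11.99 and 9.54 CPM, with WT replicates 1 and 2 apart from the rest. Lmo7, a LIM protein of adherens junctions and actin, was at 67.7, 59.7, 206 and 203 CPM and 317, 323, 259 and 251 CPM, and its pooled call was lost without WT replicate 1 or 2 (edgeR adjusted p = 0.072 and 0.066). Cav2, caveolin 2, was at 104, 104, 204 and 181 CPM and 241, 298, 198 and 186 CPM, higher in VAMP7KO by 1.37 in replicates 1 and 2 and not called in replicates 3 and 4 alone (edgeR adjusted p = 0.98). Its pooled change (0.69, adjusted p = 0.055) was called without WT replicate 3, VAMP7KO replicate 3 or VAMP7KO replicate 4 (adjusted p of 0.027, 0.038 and 0.030). Fgf7, keratinocyte growth factor, was at 61.1, 59.3, 77.96 and 76.4 CPM and 43.2, 47.7, 108 and 117 CPM, lower in the first set and higher in the second.

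**Figure D5:**
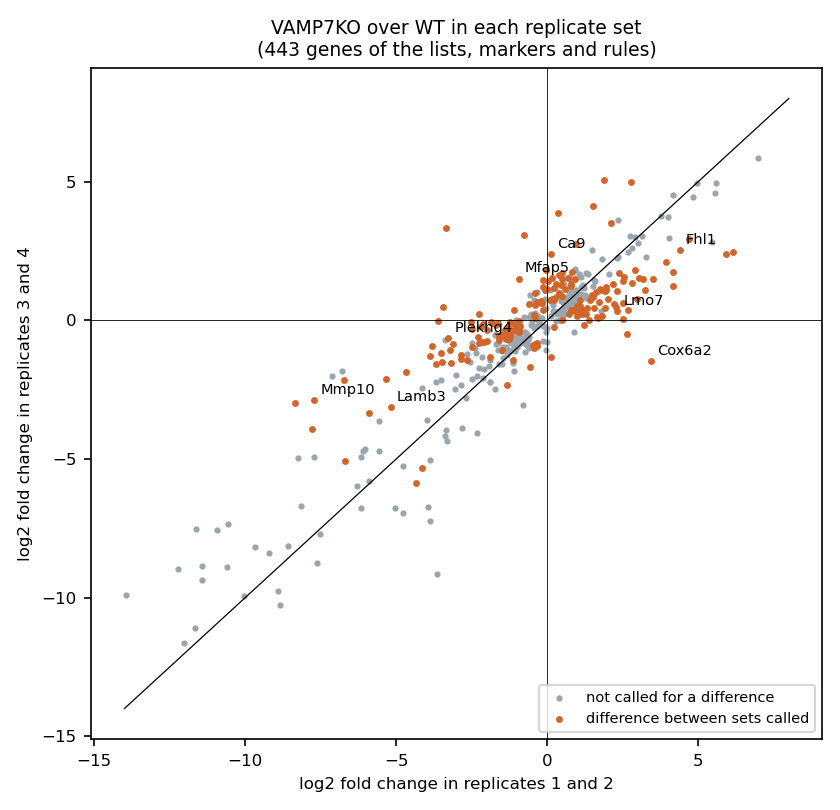
Fitted log2 fold change of VAMP7KO over WT in replicates 1 and 2 (horizontal axis) against replicates 3 and 4 (vertical axis) for 443 tested genes of the lists, markers and naming rule, with orange points for a called difference between the sets and the diagonal for equal effects. The effects have the same sign in both sets for 401 of the 443 genes, while Cox6a2 and Mfap5 lie where the signs differ and Mmp10, Lamb3, Ca9, Lmo7 and Fhl1 far from the diagonal.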

How the data were processed

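RNA of 4 WT and 4 VAMP7KO dishes was sequenced with a stranded mRNA kit and 50-base reads. The deposited table held raw read counts per Ensembl gene: the authors trimmed reads with cutadapt 4.2, removed ribosomal reads with bowtie 2.2.8, used STAR 2.7.10b for alignment (mRatBN7.2) and htseq-count 0.13.5 for counting (Ensembl 110). Counting on a whole gene cannot separate near-identical copies. A separator missing from the table's header was restored by position. Symbols came, by Ensembl identifier, from the study's lists of its own comparisons (1912 of 20842 genes), whose fold changes and p-values were not used.

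Genes were filtered by genotype with filterByExpr, scaled by TMM and tested with edgeR 4.0.16 (quasi-likelihood, replicate set and genotype as terms, Benjamini-Hochberg adjustment over all 12536 tested genes, 2-sided, calls at an adjusted p under 0.05). A genotype by set term tested differences between sets, and each set was also fitted alone. DESeq2 1.42.0 served as an alternative, and the edgeR fits were tested on simulated data. Which batch term the authors used is not given in the sources used here. Replicates were no closer than sampling noise allows (chi-square over degrees of freedom of 3.22 to 27.8 within sets), so all 8 were kept. Floors and intervals cover counting error only.

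The members and the 17 lists were chosen with earlier results of these data known. Named genes were Vamp7, the preset key members of each list, in each list the 3 called members at either end of the fold changes with 5 CPM or more in the higher genotype, the 10 largest changes in each direction that kept their direction in both sets with no overlap, and the 12 genes with the strongest difference between sets. Postn, Lima1, Krt80, Dsp, Cgn, Svil and the members of the run of neighbours outside this rule were chosen after their values were seen. RefSeq's GRCr8 tables gave promoters and gene order only, since no mRatBN7.2 genome was used here. Some genes of the lists are not reported here by name.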

Additional observations from a re-analysis of the deposited data

Results flagged for a closer look

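In groups of 4 libraries, the gap of the highest or lowest library to its nearest neighbour, as a share of the group's range, passed Dixon's limit at 5% for 5 named genes in 6 groups, where chance flags about 1 in 20 groups. The naming rule gave 161 genes in 2 genotypes, so 6 flagged groups do not stand out from chance. Where the sets differ in level, a group falls into 2 pairs and can hardly be flagged. It was 0.871 for Birc2 in VAMP7KO, where replicate 1 was high, and 0.886 for Vcam1 in VAMP7KO, where replicate 1 was low. It was 0.857 for Rab3il1 in WT, where replicate 4 was high, and 0.869 for RT1-Bb in WT. Wnt7a had 0.896 in both genotypes, with WT replicate 4 and VAMP7KO replicate 2 high.

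The effect of the knockout differed between replicates 1 and 2 and replicates 3 and 4, by edgeR's interaction test, for 2144 genes. Among the named ones the log2 fold change was lower in replicates 3 and 4 for Cox6a2 (by -4.89), Lmo7 (-2.01), Fhl1 (-1.85) and Cav2 (-1.37). It was higher in replicates 3 and 4 for Mmp10 (by 4.84), Plekhg4 (2.64), Mfap5 (2.45), Ca9 (2.27), Lamb3 (2.06), Cenpu (1.85), C1s (1.48) and Fgf7 (0.95). For Mmp10, Plekhg4 and Lamb3, which fell in both sets, the higher value is a smaller fall.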

How the results depend on the processing

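The count of called genes, 3977, stayed within 1.5 times (3128 to 5230) under DESeq2's size factors, its Wald test, both other filters on low counts, all 12 libraries in 1 fit, either set alone and each library left out (3128 to 3731 for the last, with 1515 to 1903 higher and 1587 to 1846 lower). Without the replicate block it was 712 (560 at the 1.5-fold limit, with 265 higher and 447 lower of the 712, so 37.2% higher, against 1990 higher and 1987 lower with the block), and with replicates summed within each set 581 (also 581 at 1.5-fold). At 1.5-fold, replicates 1 and 2 alone gave 2281 and replicates 3 and 4 alone 1580, against 1450 in the main fit, and leaving out a library gave 1347 to 1567. The count of differences between sets ranged from 1135 to 3163 with a library left out. Of 160 named genes, 60 lost their call without the block and 67 with summed replicates, a fit with 1 residual degree of freedom. At most 6 of those tested lost it under any other setting. With the filter of at least 1 CPM in 4 libraries only 153 of the 160 were tested. Within a set the pooled direction turned for C1s (0.37 in replicates 3 and 4 only), Cox6a2 (-1.46 in replicates 3 and 4 only), Fgf7 (-0.42 in replicates 1 and 2 only) and Mfap5 (-0.96 in replicates 1 and 2 only), none of them called in the pooled fit. With the replicate number as the replicate block in place of the set, 3179 genes were called, but equal numbers did not pair the samples: deviations from genotype means correlated at 0.66 to 0.72 within a set whatever the number, and at 0.32 and -0.035 for equal numbers once set means were removed. The set stands for an unnamed difference, how many cells gave rise to VAMP7KO is not given, and names were at hand only for genes the study listed, which limits every list count.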
